A study of Saccharomyces cerevisiae with 4 samples.

Results

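The PAU, DAN and TIR genes of the yeast Saccharomyces cerevisiae were described in the translocant strain D10 Small relative to its parental strain WT San I. The set holds 30 genes, PAU1 to PAU24, DAN1, DAN4 and TIR1 to TIR4, taken by systematic name from the 6256 gene probes of the array. D10 Small was grown in YPD with kanamycin at 200 mkg/ml, and RNA of its 4 biological replicates, labelled with Cy3, was hybridised to 1 array each. Pooled WT San I RNA, labelled with Cy5, formed the other channel of all 4 arrays. WT San I was grown in YPD, a rich glucose medium, and the labels name no drug for it, so strain and drug changed together. Both were taken at an optical density of 0.4 to 0.5. The labels leave out the make-up of the pool, which chromosomes the translocation joins or how many clones D10 Small represents. The dyes were not swapped, so a dye effect of a gene and a difference between the strains cannot be told apart. The pool is 1 control sample, so no test holds the spread of WT San I itself. Where less RNA per cell and fewer cells with the transcript could both lower a signal, these arrays cannot tell them apart.

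The DAN and TIR genes of the family encode serine- and alanine-rich proteins of the cell wall, many of them mannoproteins joined to it through a lipid anchor. In laboratory yeast the DAN and TIR genes are repressed in air and induced when oxygen or heme is scarce, when they take the place of constitutive wall proteins such as CWP1 and CWP2. TIR1, TIR3 and TIR4 are needed for growth without oxygen. The PAU genes, named seripauperins for their low serine content, form the largest gene family of this yeast, lie mostly near chromosome ends and are also induced by lack of oxygen, cold and alcoholic fermentation. The transcription factor UPC2 activates DAN and TIR genes in the absence of oxygen, and ROX1 and MOT3 repress hypoxic genes together with the corepressor of TUP1 and CYC8.

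Each gene had 1 probe printed in 7 spots. Raw spot intensities had medians of 304 to 444 per array for D10 Small and of 120.4 to 261 for the pool. Above background were 91.8% to 93.2% of the probes for D10 Small and 86.0% to 89.1% for the pool. Between arrays the ratios had a Pearson's r of 0.975 to 0.990 across genes, and genes are no replicates. Only 4 arrays were made, which limits the precision. All ratios are D10 Small over the WT San I pool in log2 units, given as the mean of the 4 arrays ± SD, and levels are normalised spot intensities that include an offset of 50, which draws ratios of dim genes toward 0. A gene was called when limma's adjusted p over all 5794 genes tested was under 0.05.

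Of the 30 genes, 29 passed the filter on dim probes, and each of these was above background in both channels on all 4 arrays. The exception was DAN1, which was above background in D10 Small on 2 arrays and in the pool on 0. Of the 29 tested genes, 28 were higher in D10 Small and 1, TIR3, was lower. Calls were common in this comparison, with 43.3% of all tested genes called higher and 39.4% called lower, so the number of calls alone says little about the family. Sizes were larger among the PAU genes. They made up all 21 members called higher and at least 2-fold, against 6.21% of all tested genes. Of the 5 tested DAN and TIR genes 0 reached this, and 0 members were called lower and at least 2-fold, against 3.05%. These counts depend on the offset of 50. Without background correction, with offset 0, in the value table of the authors and by the scanner's net ratio, all 24 PAU genes passed 2-fold higher and TIR3 passed 2-fold lower, while the share of all tested genes ran from 9.27% to 12.2% higher and from 4.83% to 9.30% lower. The median over the 29 members, of which 24 are PAU genes not taken as separate measurements, was 1.47. Over all tested genes the median was 0.02. All 29 had the same sign on the 4 arrays, as had 5051 of the 5794 tested genes.

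The PAU genes were higher in D10 Small without exception. All 24 were called, with ratios from 0.76 ± 0.14 for PAU17 to 1.86 ± 0.20 for PAU12 (SD, n = 4 each), which are 1.69-fold and 3.63-fold differences, and limma's adjusted p ran from 1.25e-07 to 1.04e-05. On every array all 24 had a brighter D10 Small signal. The median level of the 24 genes on the 4 arrays was 514, 383, 348 and 253 in D10 Small, against 148, 132, 129.9 and 114 in the pool.

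The PAU genes are known as a family of closely related sequences. No sequences were compared here, and whether their probes share transcripts was not tested, so the 24 values are not taken as separate measurements. Their median ratio was 1.85, 1.61, 1.49 and 1.23 on the arrays of replicates 1 to 4, with a mean of 1.54 ± 0.26 (SD, n = 4). Its size depended on how the ratio was made. The median was 2.18 with normexp at offset 0, 2.12 in the value table of the authors and 2.34 by the scanner's net ratio. It was 1.54 with the offset of 50 used here.

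PAU12 (YGR294W) on VII right had the highest ratio. Its level was 784, 596, 549 and 409 in D10 Small, against 180.1, 165, 153 and 132 in the pool. Every D10 Small value was above every pool value. PAU2 (YEL049W), a gene on V left, had a level of 655, 544, 465 and 358 in D10 Small, against 161, 144, 141 and 122 in the pool. Its ratio of 1.80 ± 0.21 was a 3.49-fold difference with an adjusted p of 2.28e-07 in limma, and here too the groups were apart. Next in order were PAU9 (YBL108C-A) with 1.75 ± 0.26, PAU6 (YNR076W) with 1.73 ± 0.25 and PAU8 (YAL068C) with 1.71 ± 0.16. PAU18 (YLL064C) had 1.70 ± 0.25, PAU16 (YKL224C) 1.69 ± 0.30 and PAU1 (YJL223C) 1.69 ± 0.21. These 6 genes differed from each other by less than their SD over arrays, which holds the array-to-array shift of the whole family.

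A middle group followed without a gap. PAU13 (YHL046C) had 1.66 ± 0.23, PAU14 (YIL176C) 1.64 ± 0.23, PAU24 (YBR301W) 1.60 ± 0.28 and PAU3 (YCR104W) 1.56 ± 0.24. PAU4 (YLR461W) had 1.52 ± 0.33, PAU15 (YIR041W) 1.49 ± 0.25, PAU10 (YDR542W) 1.47 ± 0.26, PAU21 (YOR394W) 1.45 ± 0.22 and PAU22 (YPL282C) 1.45 ± 0.26. PAU20 (YOL161C) stood at 1.4 ± 0.16, PAU19 (YMR325W) at 1.32 ± 0.29 and PAU11 (YGL261C) at 1.21 ± 0.25. Neighbours in this order differed by less than their SD over arrays. That SD holds the array-to-array shift of the whole family, so it is not the spread of a difference between genes. The plot of ratios by gene shows this run and the lower values of PAU5, PAU7, PAU17 and PAU23.

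**Figure D1:**
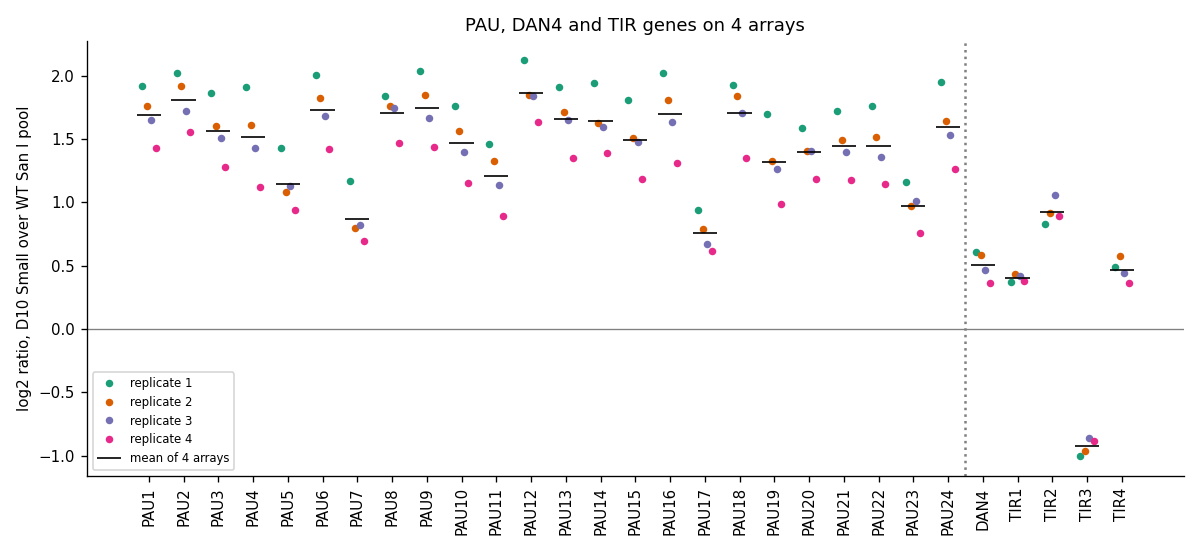
Log2 ratio of D10 Small over the WT San I pool (vertical axis) for the 24 PAU genes and, right of the dotted line, for DAN4 and TIR1 to TIR4, with 1 point per array and a bar at the mean of the 4 arrays. The PAU genes lie between means of 0.76 and 1.86, and TIR3 lies below 0 at -0.93. DAN1 was not tested and is not drawn.

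PAU5, PAU7, PAU17 and PAU23 had the lowest ratios of the PAU genes. PAU17 (YLL025W) had a level of 244, 196, 171 and 147 in D10 Small, against 127, 113, 107 and 95.6 in the pool. PAU7 (YAR020C) had a level of 291, 194, 194 and 164 in D10 Small, against 129.7, 111, 110.04 and 101 in the pool, and a ratio of 0.87 ± 0.20. For both genes every D10 Small value was above every pool value. PAU23 (YLR037C), also known as DAN2, had a ratio of 0.97 ± 0.17 and PAU5 (YFL020C) of 1.15 ± 0.21. These 4 genes were nevertheless called, with limma's adjusted p from 2.16e-06 for PAU23 to 1.04e-05 for PAU7.

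Most PAU genes stayed on the same side of the family median on all 4 arrays, although the whole family moved from array to array. Their order was not fixed. PAU4 was above PAU8 on the array of replicate 1 (1.91 against 1.84) and below it on that of replicate 4 (1.12 against 1.47). After each array's PAU median was subtracted, 10 of the 24 genes lay above it and 11 below it on all 4 arrays, and 3 (PAU3, PAU4 and PAU8) lay on both sides. The median SD of a gene over arrays was 0.24 before the subtraction and 0.05 after it. PAU17 lay below the family median by 0.91, 0.81, 0.82 and 0.61 on the 4 arrays, and PAU12 lay above it by 0.27, 0.24, 0.35 and 0.41. All 24 genes had their highest ratio on the array of replicate 1 and their lowest on that of replicate 4. These were also the arrays with the highest and the lowest median raw intensity in both channels. The range of the PAU median over the arrays was 0.63 as reported, 0.36 with normexp at offset 0, 0.34 in the value table of the authors and 0.23 by the scanner's net ratio, with which replicate 2 was highest.

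**Figure D2:**
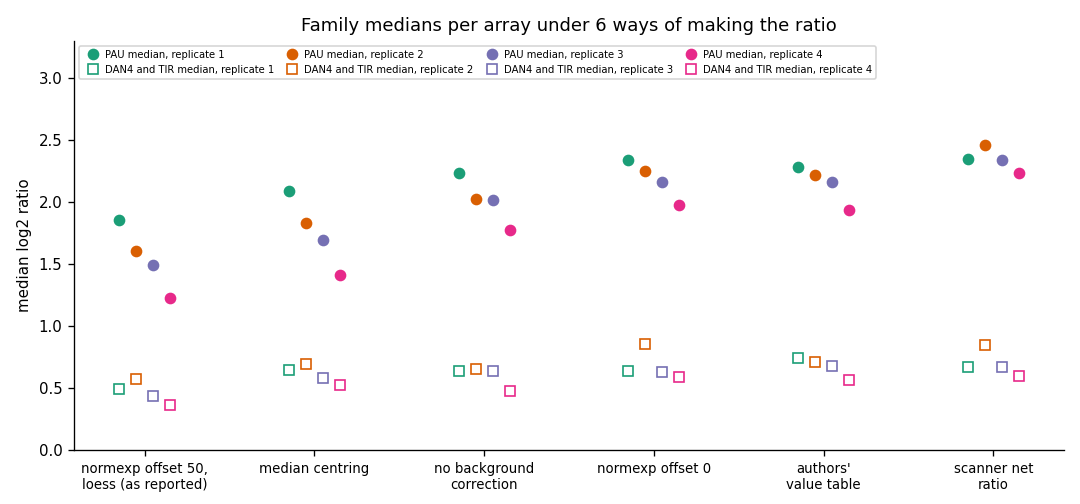
Median log2 ratio (vertical axis) of the 24 PAU genes (filled circles) and of DAN4 and TIR1 to TIR4 (open squares) on each of the 4 arrays under 6 ways of making the ratio. The PAU median lies above the DAN4 and TIR median on every array under each, and the arrays lie closest together with the scanner's net ratio, between 2.23 and 2.46.

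The DAN and TIR genes, which diverge from the PAU genes in sequence and carry long serine-rich stretches, went different ways. Of the 5 tested, 4 were higher and 1 lower, and none reached 2-fold with the offset of 50. The shares over all tested genes were 43.3% higher and 39.4% lower. Their median ratio was 0.49, 0.58, 0.44 and 0.36 on the 4 arrays, with a mean of 0.47 ± 0.09 (SD, n = 4). The PAU median exceeded it by 1.36, 1.03, 1.05 and 0.86 on the 4 arrays, a difference of 1.08 ± 0.21. No p is given for this difference because the members were chosen with earlier results known. Every PAU gene except PAU7 and PAU17 had a higher mean ratio than TIR2, the highest gene of this group. These 2 genes too exceeded TIR2 with median centring, without background correction, with offset 0, in the value table of the authors and by the scanner's net ratio.

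TIR2 (YOR010C), a cold-shock-induced wall protein, had a level of 2368, 2032, 1967 and 1820.2 in D10 Small, against 1333, 1078, 944 and 982 in the pool. The groups did not overlap. Its ratio of 0.92 ± 0.10 was a 1.9-fold difference with an adjusted p of 4.45e-07 in limma. TIR4 (YOR009W), its neighbour on XV right, had a level of 258, 216, 211 and 169 in D10 Small, against 184, 145, 156 and 131 in the pool. Here the values overlapped between channels over the arrays, while on each array D10 Small was the brighter. The ratio of TIR4 was 0.47 ± 0.09, with an adjusted p of 1.38e-05 in limma.

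TIR1 (YER011W), the best known mannoprotein of the group, had a level of 1090, 938, 877 and 694 in D10 Small, against 844, 694, 658 and 533 in the pool. Its ratio was 0.37, 0.43, 0.41 and 0.38 on the 4 arrays, a mean of 0.40 ± 0.03 with an adjusted p of 6.27e-06 in limma. Its SD was the smallest of the 29 tested members, and D10 Small was the brighter on each array, although values overlapped between channels over the arrays. DAN4 (YJR151C) had a level of 199, 166, 148 and 130.3 in D10 Small, against 131, 111, 107 and 101 in the pool, and a ratio of 0.51 ± 0.11 with an adjusted p of 1.88e-05 in limma. Its channels overlapped over the arrays by less than 1 unit, with D10 Small the brighter on each. DAN1 (YJR150C), which lies next to DAN4 on X right, had a level of 60.5, 60.7, 58.3 and 59.6 in D10 Small, against 60.6, 59.4, 58.6 and 57.5 in the pool. Both channels were near the offset, and no fold is given for DAN1.

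TIR3 (YIL011W) was the only member that fell. Its level was 327, 254, 251 and 215 in D10 Small, against 656, 494, 458 and 396 in the pool, and the groups did not overlap. The ratio was -1.0, -0.96, -0.86 and -0.88 on the 4 arrays, which averages -0.93 ± 0.07, and limma's adjusted p was 1.89e-07. TIR3 thus had 0.526 of the pool's level in D10 Small, while TIR1 and TIR4, which like it are needed for growth without oxygen, were higher. It stayed lower under every alternative tried, between -1.15 with the scanner's net ratio and -0.68 with median centring.

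**Figure D3:**
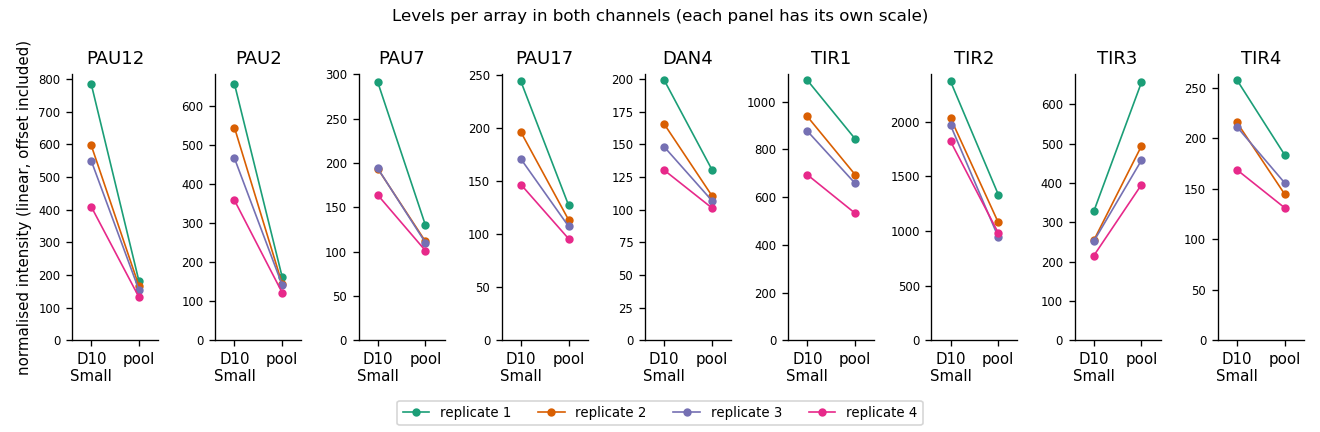
Normalised intensity on a linear axis that starts at 0 (each panel has its own scale) of 9 members in D10 Small (left) and in the WT San I pool (right), with a line joining the channels of each of the 4 arrays. The lines run down to the pool in 8 panels and up to the pool for TIR3, at 215 to 327 in D10 Small and 396 to 656 in the pool.

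Place on the chromosome was read from systematic names, in which ORF numbers count outward from the centromere on each arm, and was given as the rank of a probe from the chromosome end. Of the 24 PAU genes, 19 were among the outer 10 probes of their arm, at ranks 2 to 7. The other 5 lay further in, PAU7 at rank 25, PAU2 at rank 32, PAU17 at rank 43, PAU5 at rank 49 and PAU23 at rank 438. The DAN and TIR genes were all further in than the 19, DAN4 and DAN1 at ranks 12 and 13 and the TIR genes at ranks 167 to 389.

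The 19 outer PAU genes had a median ratio of 1.60 and a range of 1.21 to 1.86. The 5 inner genes had a median of 0.97, but they were not alike. PAU2 stood at 1.80, within the range of the outer genes, whereas PAU5, PAU7, PAU17 and PAU23 lay between 0.76 and 1.15, below each of the 19. This separation of the 4 genes from all 19 held under each alternative except without replicate 2, where 18 of the 19 were above PAU5. Over the 24 genes, which share arrays and may share transcripts, the ratio and the rank from the end had a Spearman's rho of -0.36, and the ratio and the log2 rank had a Pearson's r of -0.63. The same ratios had a Pearson's r of 0.89 with the gene's mean log2 intensity over both channels, which holds the D10 Small signal too. That r was 0.68 with normexp at offset 0 and 0.54 by the scanner's net ratio. The part of probe brightness in the low ratios of the 4 inner genes was not tested. With offset 0 the outer median exceeded the median of these 4 genes by 0.77, against 0.68 as reported.

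**Figure D4:**
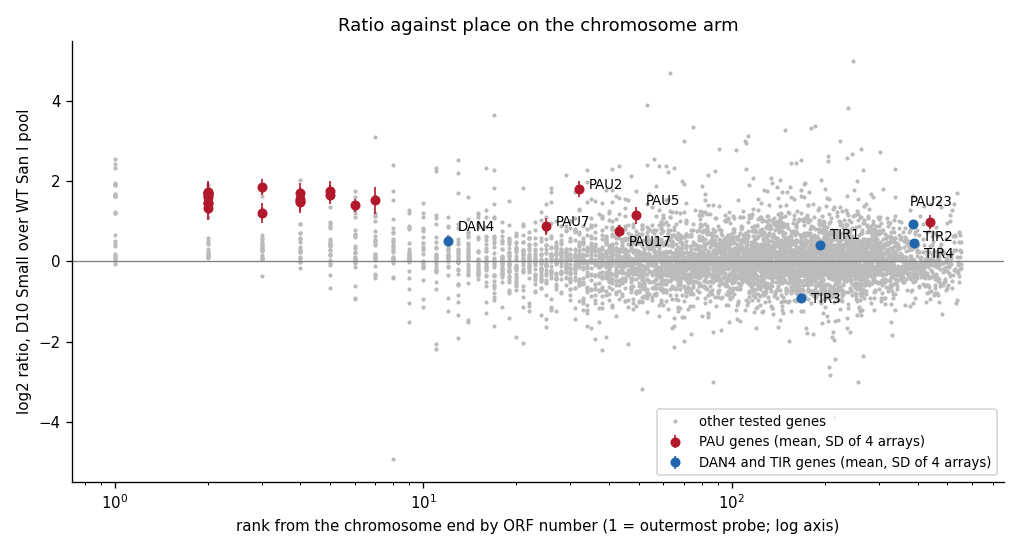
Log2 ratio of D10 Small over the WT San I pool (vertical axis) against rank from the chromosome end by ORF number (horizontal log axis, 1 is the outermost probe) for PAU genes (red), DAN4 and TIR genes (blue), with error bars for the SD of 4 arrays, and for all other tested nuclear genes (grey). The 19 PAU genes at ranks 2 to 7 lie between 1.21 and 1.86, and of the PAU genes further in, PAU2 alone lies as high.

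Other genes near chromosome ends were also more often higher in D10 Small, with smaller medians. Single ones at ranks 1 to 5 ran from -0.66 to 2.55, past the highest PAU gene. At ranks 1 to 5, 103 of 120 tested genes outside the family were called higher, or 85.8%, with a median ratio of 0.41. Whether probes of these genes share transcripts was not tested, so they are not taken as separate measurements. Of the 120, 26 were above background in the pool on 0 arrays and passed the filter on dim probes through D10 Small alone, and of the 82 with both channels above background on 3 or more arrays 86.6% were higher. The 17 PAU genes at these ranks had a median of 1.64. At ranks 6 to 10, 60.3% of 136 other genes were higher with a median of 0.17, and the 2 PAU genes there, PAU4 and PAU20, had 1.52 and 1.4. At ranks 11 to 20 and beyond 20 the medians of other genes were 0.05 and 0.00115, with 47.0% and 41.4% higher. The outer values moved with the processing in both directions. The median of other genes at ranks 1 to 5 was 0.27 with median centring and 0.30 without the filter on dim probes. It was 0.59 with both channels above background, 1.06 with normexp at offset 0 and 1.63 by the scanner's net ratio. Under the last of these the gap to the PAU median of 2.34 was smaller than as reported. The order of the 2 medians was the same under all alternatives.

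The genes directly beside PAU genes were 48 probes outside the family, of which 37 were tested. Of these, 25 had both channels above background on 3 or more arrays, and 19 of the 25 were higher, 5 lower and 1 not called, with a median of 0.58 and a range of -0.82 to 2.02. The share of higher calls over all tested genes was the 43.3% given above. Another 11 were above background in the pool on 0 arrays and passed the filter only through D10 Small, so that they could hardly have been lower, and 10 of these were higher. Of the 37, 6 were called higher and at least 2-fold, against 6.21% of all tested genes. A ratio above that of PAU17, the lowest PAU gene, was seen in 11 of the 37. PAU17 lay between SSA2 and HSP104, a pair of chaperone genes that were lower with -0.82 ± 0.08 and -0.77 ± 0.13, while PAU17 itself was higher. YRF1-8 beside PAU21 had 1.89 ± 0.15 and YRF1-7 beside PAU22 had 1.64 ± 0.11, each above the PAU gene it flanks. These neighbours, and ARN2, a siderophore transporter gene beside PAU13 with the highest value of 2.02 ± 0.11, were named after their values were seen.

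Neighbours of the DAN and TIR genes showed no common direction. AUS1, a sterol importer gene beside TIR2, was higher with 0.42 ± 0.09, and DAL5, an allantoate transporter gene beside DAN4, with 0.59 ± 0.08. YJR149W beside DAN1 was lower with -0.21 ± 0.06. Beside TIR3, DOT5 was higher with 0.21 ± 0.03 and YIL012W was not called at 0.03 ± 0.01. Beside TIR1, YER010C was higher with 0.27 ± 0.13 and the proteasome gene PRE1 was not called at -0.05 ± 0.10, and beside TIR4, YOR008W-B was not called at 0.02 ± 0.04. TIR3 and DOT5 went opposite ways. YIL012W was above background in the pool on 0 arrays, so it could hardly have been called lower.

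Every member on an arm whose other genes had a median below 0 was higher. Since 28 of the 29 tested members were higher, this says little about the arms. The arms with the lowest medians are given here. On I left the 63 other tested genes had a median ratio of -0.53, and PAU8 there had 1.71. On III right the median of 95 other genes was -0.31, and PAU3 had 1.56. On VII right the median of 271 other genes was -0.50, and PAU12 had 1.86. A median does not show how the values run along an arm, and the part of the arm in these ratios was not tested. PAU12, the highest of the family, had YGR293C, which was not tested, on one side and COS6 with 0.58 ± 0.01 on the other.

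Loess centres the ratios near 0 at each brightness, so only their spread was compared with that of the family. Within the range of mean log2 intensity that the PAU genes cover were 1406 tested genes outside the family, and 90% of them lay between -0.77 and 0.97. Called higher and at least 2-fold were 4.62%, and 2.42% had a ratio at or above the PAU median.

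Most regulators of the family differed by small amounts, and TUP1 and SUT2 by more. Of the 11 regulators listed, 7 were higher and 4 lower, against 43.3% and 39.4% of all tested genes, and their median was 0.22. TUP1, the corepressor subunit that keeps hypoxic genes silent in air, had -1.33, -1.26, -1.17 and -1.07 on the 4 arrays. Its mean of -1.21 ± 0.11 is 0.432 of the pool's level, with an adjusted p of 1.77e-07 in limma. TUP1 lies on III right, the arm with the median of -0.31 given above, whose part in its value was not tested. CYC8, its partner, was higher with 0.35 ± 0.04. SUT2, a paralogue of the sterol uptake regulator SUT1, was higher with 0.98 ± 0.07, and SUT1 with 0.43 ± 0.09.

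UPC2, the activator of the DAN and TIR genes, was lower with -0.16 ± 0.06 and an adjusted p of 0.00339 in limma, and at -0.01 it no longer passed with median centring. ECM22, its paralogue, was higher with 0.22 ± 0.04. The repressor ROX1 was higher with 0.36 ± 0.09, and HAP1, the heme-sensing activator, with 0.38 ± 0.10. MOT3 was lower with -0.15 ± 0.05, but with median centring it had 0.09 and did not pass. MGA2 and SPT23, membrane-bound activators of the desaturase gene OLE1, had -0.33 ± 0.02 and 0.21 ± 0.06. These were called, but UPC2, ECM22, MOT3, MGA2 and SPT23 did not pass a limma test against a minimum fold of 1.2, which all 29 tested members passed.

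Hypoxic genes outside the family numbered 12, of which 8 were higher and 3 lower, and their median was 0.34. Over all tested genes 43.3% were higher and 39.4% lower, so these counts alone say little. AAC3, the ADP/ATP carrier made without oxygen, was higher with 1.53, 1.37, 1.34 and 1.15 on the 4 arrays, a mean of 1.35 ± 0.16. CYC7, the hypoxic cytochrome c, was higher with 1.05 ± 0.09 and YHK8, a presumed transporter, with 0.63 ± 0.12. With offset 0 YHK8 had 1.59. OLE1 was lower with -0.44 ± 0.04, a value that was -0.96 with median centring, and the sterol importer gene AUS1 was higher as given above. HEM13, a heme synthesis gene that ROX1 represses, and MGA1 were the other lower members, and HMG2 was not called. AAC3 and CYC7 were the 2 genes of this list that reached 2-fold with loess and the offset of 50.

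The constitutive wall proteins showed opposite changes at a single locus. CWP1 was lower with -1.0 ± 0.06, and CWP2, which lies beside it on XI left, was higher with 1.12 ± 0.05. With median centring CWP2 had 0.36 and no longer reached 2-fold. Of 12 wall mannoproteins outside the family, 8 were higher and 3 lower, against 43.3% and 39.4% of all tested genes, and their median was 0.77. The secreted glycoprotein YGP1 had the highest value with 3.31 ± 0.09, followed by FIT3 with 2.53 ± 0.13, a mannoprotein that holds siderophore-bound iron, and SED1, a major wall protein of stationary cells, with 1.36 ± 0.03. CCW14 was higher with 1.15 ± 0.16. Median centring reduced SED1 to 0.30 and CCW14 to 0.61. SPI1, a stress-induced wall protein, was lower with -1.10 ± 0.27, its 4 arrays reading -1.26, -1.22, -1.21 and -0.70, and TOS6 was lower as well. TIP1, the founding relative of the TIR genes, was higher with 0.50 ± 0.03. CCW12 was not called at -0.03 ± 0.12, but with median centring it was lower with -1.06.

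**Figure D5:**
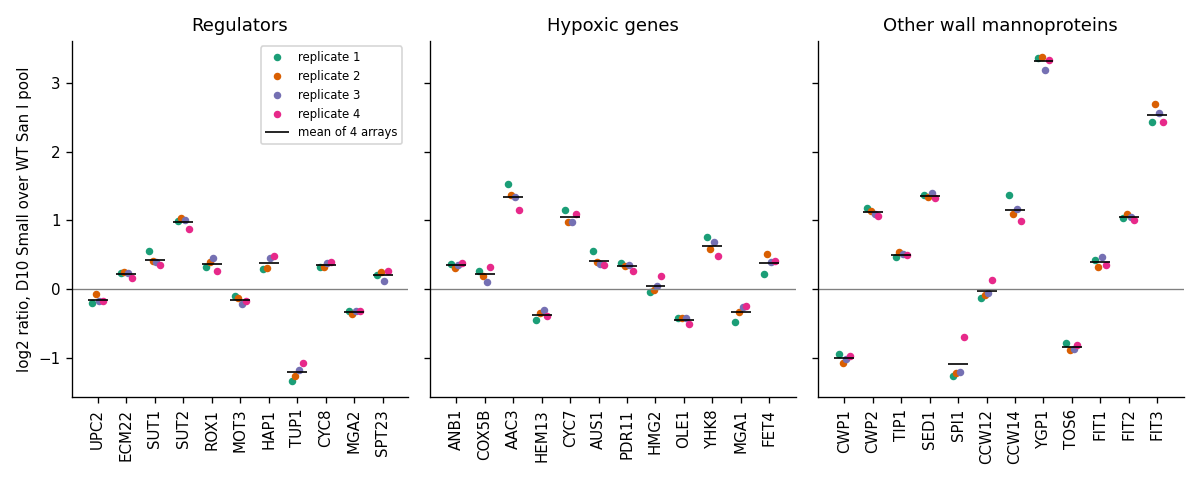
Log2 ratio of D10 Small over the WT San I pool (vertical axis) for 11 regulators, 12 hypoxic genes and 12 other wall mannoproteins, with 1 point per array and a bar at the mean of the 4 arrays. TUP1 stands lowest among the regulators at -1.21, AAC3 highest among the hypoxic genes at 1.35, and CWP1 and CWP2 stand on opposite sides of 0.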

How the data were processed

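Per the file headers, the deposited scanner files hold mean spot intensities of the Cy3 and Cy5 channels, unsubtracted, with background medians beside them. Each deposited scanner file has a column of net log2 ratios too. The net signal of the pool is larger than its raw signal less background at most spots, so it had been rescaled, and how is not stated. The software is not given in the sources used here. Per the labels' protocols, total RNA (250 ng) was amplified and labelled. A value table of the authors holds log2 ratios whose medians run from -0.00570 to 0.00265, which places its centre near 0. Over genes it had r from 0.965 to 0.972 with the ratios reported here, which fixes its direction. Its normalisation is not stated.

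Mean intensities were corrected with limma 3.58.1 in R 4.3.3 (normexp, offset 50) and normalised within arrays by loess with control spots at weight 0. Spots counted as above background if, net of local background, they lay over 2.6 SD above the mean of 153 negative controls, and probes if at least 4 of 7 spots did. Spots beyond the quartiles of their probe by over 1.4 interquartile ranges were left out, 6.06% to 8.10% per array. Genes above background for either channel on 3 or more arrays were tested against 0 with lmFit and eBayes and Benjamini-Hochberg adjustment. On simulated arrays of 5905 genes with 200 changed, the test found 100% of 2-fold changes, 98% of those of 0.5 (log2), and called 0.140% of unchanged genes, and the median fitted value of genes raised 2-fold was 0.82. The simulation held no dye effect of single genes. Its changed genes were drawn from brighter genes only, so recovery among dim genes was not tried. The names of the scanner files share 1 number and differ by a letter, and nothing else names a slide, so no slide was fitted as a block.

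Symbols were matched by systematic name to RefSeq's R64 assembly, with 5756 of 6256 probes matched. All 30 members are named, with all regulators, up to 5 genes of largest ratio per other list and the probes flanking DAN and TIR genes. HEM13, MGA1, HMG2, CWP1, SPI1, TOS6, TIP1 and CCW12 were named after their values were seen. Members and lists were chosen with earlier results of these data known. No sequences were used here. The alternatives were median centring, no background correction, offset 0, the authors' value table, the scanner's net ratio, other filters, no spots left out, a minimum fold of 1.2, and leaving out each replicate.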

Additional observations from a re-analysis of the deposited data

Results flagged for a closer look

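Of 66 ratios and medians checked for a single array far from the other 3, none of the family was marked, and 3 genes of the context lists were. Chance marks about 1 in 20 such groups. SPI1 had -0.70 on the array of replicate 4, MGA2 had -0.36 on that of replicate 2, and OLE1 had -0.51 on that of replicate 4. The MGA2 and OLE1 values lie within 0.1 of the other arrays, while for SPI1 the other arrays read -1.26 to -1.21.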

How the results depend on the processing

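The 29 tested members kept their direction and their call under all 13 alternatives, with 28 higher and 1 lower each time. Sizes moved more. With the scanner's net ratio 14 members had ratios over 1.5 times as large, 7 had them with offset 0 and 5 in the value table of the authors, and none shrank by as much. No paired analysis was possible because there is 1 group of replicates against 1 pool. The grouping of PAU genes by protein identity was not run, since no sequences were used here. Without I left, III right and VIII left the PAU median was 1.49. Other arms with shifted medians were kept, VII right with -0.50 and XV left with 0.44 among them. The DAN and TIR median was 0.61 with median centring, 0.60 without background correction, 0.68 with offset 0, 0.67 in the value table of the authors and 0.70 by the net ratio. The PAU median under the last 4 was 2.00, 2.18, 2.12 and 2.34, and its difference from the DAN and TIR median 1.4, 1.5, 1.45 and 1.64. For genes outside the family at ranks 1 to 5, 6 to 10, 11 to 20 and over 20, the medians were 0.82, 0.33, 0.076 and -0.0030 without background correction, 1.06, 0.50, 0.10 and -0.0040 with offset 0, and 0.92, 0.37, 0.11 and -0.0034 in the value table of the authors. They were 0.30, 0.092, 0.024 and -0.014 without the filter on dim probes and 0.59, 0.23, 0.027 and -0.016 with both channels above background. At ranks 1 to 5, 6 to 10 and over 20 they were 1.63, 0.69 and -0.078 with the net ratio, and at ranks 1 to 5 and over 20 they were 0.27 and 0.050 with median centring. Leaving out 1 replicate gave a PAU median of 1.43 to 1.65, a DAN and TIR median of 0.43 to 0.50 and a difference of 0.97 to 1.15. MOT3, reported as lower, was 0.094 with median centring. The cause of these moves was not tested. Signal over background limits DAN1.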
